A study of Bos taurus with 22 samples.

Results

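The genes of deoxynucleotide synthesis described here are RRM1, RRM2, TYMS, DTYMK and TK1. They were matched by symbol to the Ensembl identifiers of the count table, and all 5 of the 27607 genes in that table passed the filter on low counts, as part of the 13535 genes that were tested. Their names come from a gene table of the study that is held only in part and is ordered by the p-value of the fertility comparison, so these genes were selected on their difference between Fertile and Sub-Fertile heifers, which is described below without a test. RNA was sequenced from circulating white blood cells of 22 purebred heifers (Bos taurus), with 1 library per heifer, to compare animals that did and did not conceive readily. Fertile heifers had calved from their first artificial insemination. Angus heifers were called Sub-Fertile when services by insemination and then by a bull had all failed, whereas Holstein heifers were called Sub-Fertile when insemination had to be repeated several times. The groups were Holstein Sub-Fertile (n = 5, heifers 1 to 5), Holstein Fertile (n = 5, heifers 6 to 10), Angus Sub-Fertile (n = 7, heifers 11 to 17) and Angus Fertile (n = 5, heifers 18 to 22). All blood was drawn at the first insemination, after estrus synchronization with gonadotropin-releasing hormone, prostaglandin and a progesterone insert (CIDR). Angus heifers averaged 14 months of age and carried the insert for 7 days, and Holstein heifers averaged 12 months and carried it for 5 days. Breed, age and synchronization protocol cannot be told apart in this design.

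A cell that copies its DNA needs the 4 deoxynucleoside triphosphates in balanced supply. Ribonucleotide reductase makes deoxynucleotides from ribonucleotides, and is built from a large subunit (RRM1), which holds the catalytic site, and a small subunit (RRM2), which supplies the radical and is made mainly in S phase. Thymidylate synthase (TYMS) makes dTMP from dUMP with a folate cofactor, thymidine kinase 1 (TK1) makes dTMP from salvaged thymidine, and thymidylate kinase (DTYMK) adds the next phosphate to dTMP from both routes. Most leukocytes in blood do not divide, and transcripts of these enzymes are known as marks of proliferating cells.

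The libraries held between 12182400 and 49228035 counts (median 23158374). Every pairing of heifers was compared by the biological coefficient of variation (BCV), which is the spread between the libraries beyond counting error, over 7746 well-counted genes. In 8 pairings the BCV lay between 0.0377 and 0.0828, whereas the other 223 pairings had values from 0.0981 upward with a median of 0.174. In these 8 close pairs heifer 1 went with heifer 11, 5 with 6, 7 with 16, 8 with 12, 10 with 18, 13 with 22, 14 with 20 and 15 with 19. They held 16 of the 22 heifers, 4 of them joined an Angus with a Holstein heifer, and 6 crossed the fertility groups. Heifers of a close pair may thus not be independent samples. The fertility and breed estimates and the correlations between the 5 genes are also given with the pairs taken into account, whereas the interaction, the correlations within breeds and those with other genes are not. The sources used here do not say what the heifers of a close pair shared. Whether they shared a processing batch, or whether libraries were mixed or exchanged between labels, was not tested, and either would change what the breed and fertility values below compare. Gene names were at hand for 1229 of the 13535 genes tested, and 10 of 93 markers of blood cell types had one. No gene of the T cell, natural killer cell, monocyte, red blood cell or blood progenitor lists was among them, so the makeup of the samples could be checked only in part.

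The genes lie on 5 chromosomes of the ARS-UCD1.2 assembly. RRM1 (ENSBTAG00000013111) spans chr15:50969950-51010523, RRM2 (ENSBTAG00000008216) chr11:87488674-87495961, TYMS (ENSBTAG00000007003) chr24:35553464-35564144, TK1 (ENSBTAG00000007121) chr19:53977498-53991174, and DTYMK (ENSBTAG00000015408) chr3:120728099-120736657. Counts per library ranged from 178 for DTYMK to 11027 for RRM2, and counting error alone was between 0.952% and 7.5% of a value. Transcript abundance is given in CPM, the count of a gene scaled to a common library total, and is divided by the annotated transcript length only where genes are compared with each other.

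Per kilobase of transcript, TK1 was the most abundant of the 5 genes, with a median of 48.7 CPM per kb over the 22 heifers (range 41.2 to 77.1). RRM1 followed at 38.7 CPM per kb (31.7 to 58.8), then RRM2 at 28.4 (18.96 to 93.7), TYMS at 19.4 (14.3 to 31.3) and DTYMK at 9.61 (7.70 to 17.6). TK1 exceeded RRM1 in 22 of 22 heifers, and TYMS exceeded DTYMK in 22 of 22. RRM1 exceeded RRM2 in 20 of 22 heifers, and RRM2 exceeded TYMS in 21 of 22. The length was that of 1 annotated transcript per gene, so the order depends on that choice of transcript.

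RRM2, the S-phase subunit of ribonucleotide reductase, varied most. In Holstein Sub-Fertile heifers 1 to 5 it was measured at 61.9, 124, 96.3, 92.2 and 83.7 CPM. Holstein Fertile heifers 6 to 10 had 62.2, 59.6, 126, 119 and 289 CPM. In Angus Sub-Fertile heifers the lowest value was 66.2, the median 81.5 and the highest 126 CPM. Angus Fertile heifers 18 to 22 had 282, 89.3, 58.5, 107 and 84.5 CPM. Both heifer 10 and heifer 18 stood far above the other 20, at 3.4 and 3.31 times their median of 85.2 CPM, whereas the next highest heifer reached 1.48 times that median. Apart from these 2 animals the groups overlapped, and the lowest RRM2 value of all 22 heifers was also that of a Fertile animal, heifer 20.

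RRM1, the catalytic subunit, had a narrower range. It stood at 102, 140.4, 126, 132 and 124 CPM in Holstein Sub-Fertile heifers 1 to 5. In Holstein Fertile heifers 6 to 10 the values were 118, 122, 143, 147 and 188 CPM. Angus Sub-Fertile heifers ranged from 109.6 to 143 CPM with a median of 115.5. Angus Fertile heifers 18 to 22 had 189, 125, 108, 119.8 and 113 CPM. The highest values again belonged to heifers 10 and 18, here at 1.53 and 1.54 times the median of the other 20 heifers (123 CPM), and the 4 groups overlapped otherwise.

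The levels of the 2 subunits did not keep the same ratio in all heifers. The ratio of RRM2 to RRM1 per kilobase had a median of 0.760 and a range of 0.509 to 1.60 over the heifers. It was above 1 in 2 heifers, 10 and 18, and reached 0.931 at most in the other 20.

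**Figure D1:**
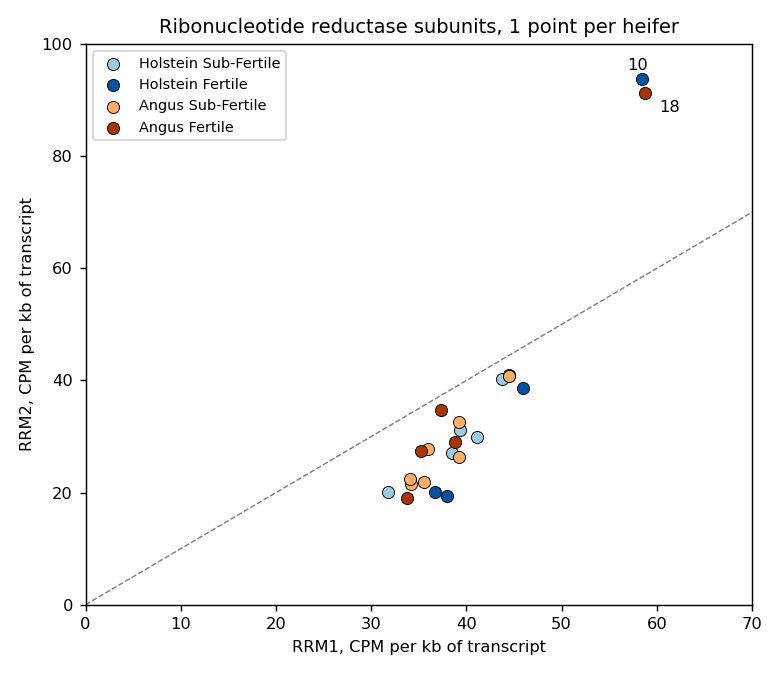
RRM2 against RRM1, both in CPM per kilobase of transcript, with 1 point per heifer coloured by breed and fertility group and a dashed line where the subunits are equal. Heifers 10 and 18 lie above the line and far from the other 20, which lie below it.

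TYMS, which makes dTMP de novo, was measured at 23.7, 39.2, 30.3, 28.5 and 32.3 CPM in Holstein Sub-Fertile heifers 1 to 5. Holstein Fertile heifers 6 to 10 had 26.7, 32.3, 34.4, 36.0 and 51.8 CPM. Angus Sub-Fertile heifers had a lowest value of 26.8, a median of 32.1 and a highest value of 36.2 CPM. Heifer 10 was the only one in these 3 groups above 39.2 CPM, the level of Sub-Fertile heifer 2. Angus Fertile heifers 18 to 22 had 50.3, 34.0, 30.3, 31.8 and 26.8 CPM, so that heifer 18 lay above every heifer of the other groups except heifer 10. The values of heifers 10 and 18 were 1.62 and 1.58 times the TYMS median of the other 20.

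TK1, the salvage enzyme, was at 74.9, 107, 86.6, 82.4 and 78.9 CPM in Holstein Sub-Fertile heifers 1 to 5. In Holstein Fertile heifers 6 to 10 it was at 74.7, 95.05, 82.7, 120.5 and 139.6 CPM. Angus Sub-Fertile heifers ranged from 76.0 to 95.7 CPM with a median of 88.8. Of these groups, Angus Sub-Fertile heifers had the narrowest range of TK1. Angus Fertile heifers 18 to 22 had 138, 96.2, 87.6, 103 and 85.5 CPM. The distance of heifers 10 and 18 from the rest was smaller than for RRM2, since heifer 9 (Holstein Fertile) came to 1.38 times the median of the 20 and heifers 10 and 18 to 1.6 and 1.58 times.

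DTYMK, which phosphorylates dTMP from both routes, was the least abundant. Its values were 13.4, 18.3, 14.9, 14.6 and 15.1 CPM in Holstein Sub-Fertile heifers 1 to 5, and 14.3, 14.4, 18.1, 21.5 and 30.6 CPM in Holstein Fertile heifers 6 to 10. Angus Sub-Fertile heifers had a lowest value of 14.0, a median of 15.7 and a highest value of 18.6 CPM. Angus Fertile heifers 18 to 22 had 27.1, 18.2, 18.4, 19.9 and 15.2 CPM. The highest values were again those of heifers 10 and 18, at 1.98 and 1.76 times the median of the other 20, and 4 heifers of the Fertile groups, 9, 10, 18 and 21, exceeded every Sub-Fertile heifer. For 5 of 5 genes, heifers 10 and 18 were thus the 2 highest heifers. The same held for 6.57% of all genes tested, and because both heifers are Fertile this pattern is tied to the fertility difference that chose the genes.

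**Figure D2:**
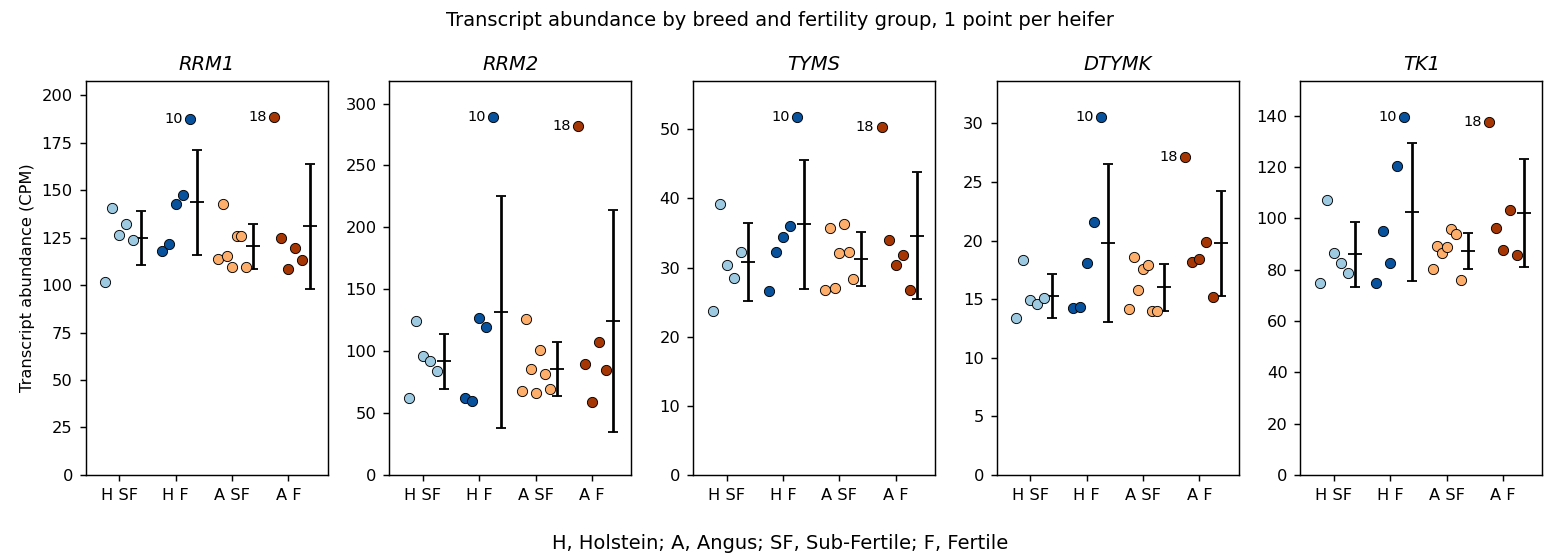
Transcript abundance in CPM of the 5 genes, each on its own axis from 0, with 1 point per heifer in each group; bars are the group mean and SD (n = 5, 5, 7 and 5). Heifers 10 and 18 are the highest in every panel, and without them the groups overlap.

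The spread within groups set RRM2 apart from the other 4 genes. The pooled SD of log2 CPM around the 4 group means was 0.65 for RRM2, which placed it at percentile 97.9 of the 9476 genes with a mean of at least 10 CPM. For DTYMK, TYMS, TK1 and RRM1 the SD was 0.28, 0.28, 0.25 and 0.23, at percentiles 81.6, 80.8, 75.5 and 70.9. The median over these genes was 0.17, so all 5 varied more between heifers of the same group than a gene at the middle of the list. In the Fertile groups much of the spread of RRM2 came from heifers 10 and 18. RRM2 averaged 131 ± 93.6 CPM in Holstein Fertile heifers (SD, n = 5) and 91.9 ± 35.9 without heifer 10 (n = 4). In Angus Fertile heifers it averaged 124 ± 89.8 CPM (n = 5) and 84.9 ± 20.1 without heifer 18 (n = 4). Holstein Sub-Fertile heifers averaged 91.7 ± 22.6 CPM (n = 5), and Angus Sub-Fertile heifers 85.3 ± 21.8 CPM (n = 7). The Holstein Fertile group thus kept the widest SD of RRM2 even without heifer 10. In samples of mixed cells, more cells of a type that carries a transcript and more of it per cell cannot be told apart.

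The genes were chosen with this comparison known, and all 5 had a higher estimate in Fertile than in Sub-Fertile heifers, as did 49% of all genes tested. At an unadjusted p under 0.05 that comparison called 2.62% of all genes, and at an adjusted p under 0.05 it called 0% (edgeR quasi-likelihood), and nothing about the 5 genes is read from either. In the model with breed and fertility group, the difference on the log2 scale (Fertile minus Sub-Fertile) was 0.53 for RRM2 (SE 0.265), 0.34 for DTYMK (SE 0.12), 0.24 for TK1 (SE 0.0997), 0.19 for TYMS (SE 0.115) and 0.16 for RRM1 (SE 0.093). These values rested largely on heifers 10 and 18. Without both, the estimate was -0.0039 for RRM2 (SE 0.169), 0.014 for RRM1 (SE 0.0657) and 0.019 for TYMS (SE 0.0877), each smaller than its standard error. DTYMK and TK1 kept a positive estimate, at 0.16 (SE 0.0898) and 0.10 (SE 0.0805). The median over the 5 genes was 0.24 with all heifers and 0.019 without this pair, against a median of -0.0020 over all genes tested. Without heifer 18 alone, the estimate for RRM2 was 0.26, that for RRM1 0.076 and that for TYMS 0.11.

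Within each breed the estimates were positive for 5 of 5 genes, and each breed held 1 of these heifers. RRM2 had an estimate of 0.52 (SE 0.394) in the 10 Holstein and of 0.54 (SE 0.337) in the 12 Angus heifers. DTYMK had 0.38 (SE 0.201) and 0.30 (SE 0.137), TK1 had 0.25 (SE 0.169) and 0.23 (SE 0.109), TYMS had 0.24 (SE 0.177) and 0.15 (SE 0.143), and RRM1 had 0.20 (SE 0.129) and 0.12 (SE 0.126) in the same order.

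The close pairs gave another view of the same difference, since 6 of them held 1 heifer of each fertility group. The Fertile heifer of the pair was the higher one in 1 of 6 pairs for RRM2, RRM1 and TYMS, in 2 of 6 for TK1 and in 3 of 6 for DTYMK. Some of these differences, in either direction, were smaller than counting error. RRM1 was at 142.9 CPM in heifer 8 (Fertile) and 142.7 in heifer 12. It was at 108.5 CPM in heifer 20 (Fertile) and 109.6 in heifer 14. The like counts over all genes were not made. With the close pairs as blocks in the model, every estimate turned negative. It was -0.19 for RRM2 (SE 0.0639), -0.083 for TYMS (SE 0.0513), -0.022 for TK1 (SE 0.0341), -0.019 for DTYMK (SE 0.057) and -0.014 for RRM1 (SE 0.0337), with a median of -0.022. The estimates for TK1, DTYMK and RRM1 were each smaller than their standard error. Both of heifers 10 and 18 are Fertile and share a pair, so the block removes their common level. The 6 pairs that held both fertility groups carry the fertility difference in this model. In the pairs 7 with 16 and 8 with 12 the heifers also differed in breed. What these pairs add thus depends on the breed term, which the pairs 1 with 11 and 10 with 18 also set.

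**Figure D3:**
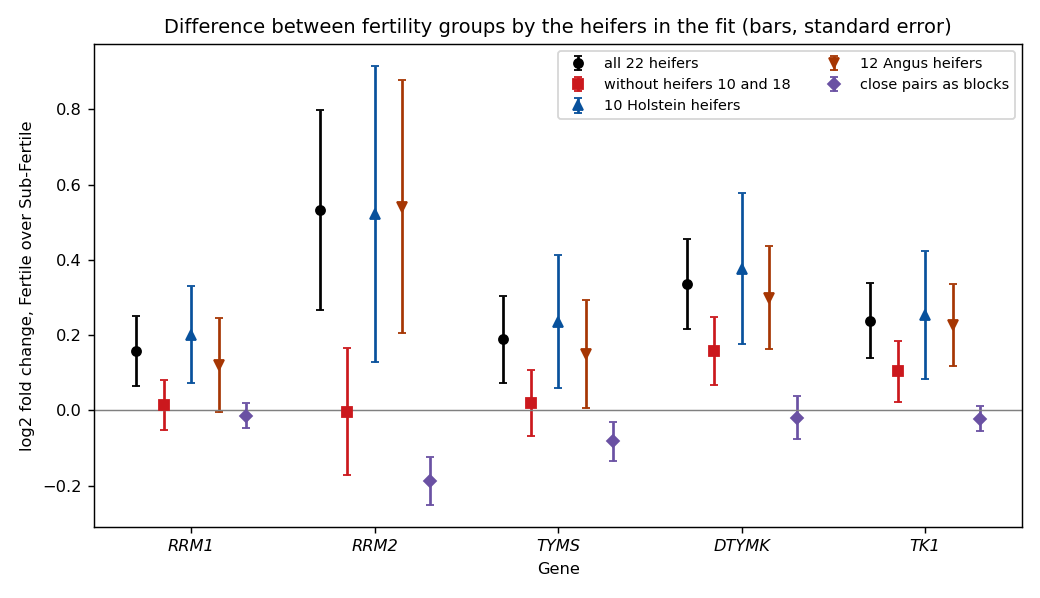
Fertility difference (log2 scale, Fertile minus Sub-Fertile) of each gene under 5 choices of heifers or model, with standard errors as bars. With all 22 heifers and within each breed every estimate is above 0. Without heifers 10 and 18 those of RRM1, RRM2 and TYMS lie near 0. With close pairs as blocks all 5 lie below 0, in a fit where only 6 pairs held both fertility groups.

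All 5 genes were more alike within close pairs than between other heifers. The pairs were chosen for small differences over genes with a mean above 20 CPM, which include RRM1, RRM2, TYMS and TK1. DTYMK, at a mean of 17.5 CPM, was not among them. That choice favours small differences within pairs, and the like values over all genes were not measured. The median absolute log2 difference of TK1 was 0.020 in the 8 close pairs and 0.21 in the other 223 pairings, and that of RRM1 was 0.023 against 0.20. DTYMK differed by a median of 0.059 against 0.30, TYMS by 0.067 against 0.26 and RRM2 by 0.15 against 0.52. Heifers 8 (Holstein Fertile) and 12 (Angus Sub-Fertile) had 126 CPM of RRM2 each and 143 CPM of RRM1 each. In heifers 10 and 18, RRM1 was at 188 and 189 CPM. RRM2 differed more than the other 4 genes in 4 of the 8 close pairs, 5 with 6, 7 with 16, 14 with 20 and 15 with 19, and most widely in the first 2 of these. Heifer 7 (Holstein Fertile) had 59.6 CPM and heifer 16 (Angus Sub-Fertile) 81.5 CPM, a log2 difference of 0.45, whereas their TYMS values of 32.3 and 32.2 CPM were nearly equal. Heifer 6 (Holstein Fertile) had 62.2 CPM of RRM2 and heifer 5 (Holstein Sub-Fertile) 83.7 CPM, a log2 difference of 0.43, and their TYMS values were 26.7 and 32.3 CPM. In these 2 pairs the Sub-Fertile heifer had the higher RRM2.

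**Figure D4:**
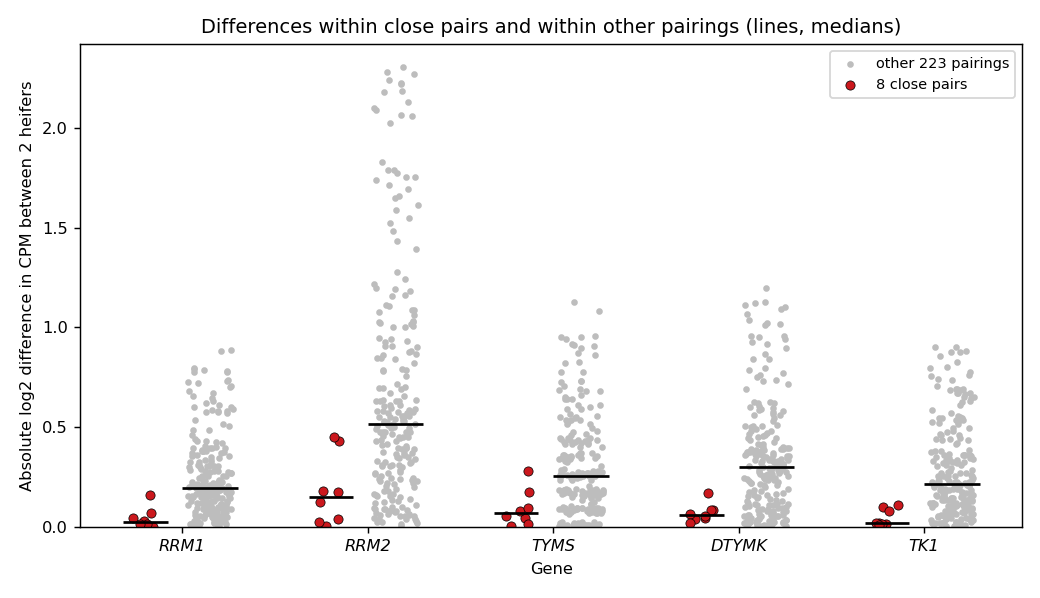
Absolute log2 difference in CPM between the heifers of a pairing, for the 8 close pairs and the other 223 pairings, with lines at the medians. For each gene the median of the close pairs lies below that of the other pairings, and RRM2 has the widest differences in both. The pairs were chosen for small differences over genes that include all of these but DTYMK.

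The order of the table that named the genes did not use the breed difference, which was tested across all genes. No difference between Holstein and Angus heifers was detected for any of the 5. In edgeR's quasi-likelihood test with Benjamini-Hochberg adjustment over 13535 genes, the log2 fold change of Holstein over Angus was 0.10 for RRM2 (95% interval -0.45 to 0.65, adjusted p = 0.905) and 0.090 for RRM1 (-0.10 to 0.28, adjusted p = 0.734). It was 0.025 for TYMS (-0.21 to 0.26, adjusted p = 0.949), -0.030 for DTYMK (-0.28 to 0.22, adjusted p = 0.94) and -0.0054 for TK1 (-0.21 to 0.20, adjusted p = 0.989). The intervals thus left room for a breed difference of RRM2 in either direction, and were narrower for the other 4. At an adjusted p under 0.05 the test called 0 of the 5 genes and 0% of all genes. At an unadjusted p under 0.05 it again called 0 of the 5, beside 10.6% (1440) of all genes. DESeq2 called 10 genes by breed after adjustment, and 0 of the 5 were among them.

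The interaction asked whether the fertility difference was of another size in Holstein than in Angus heifers, and none was detected. The difference between breeds in the log2 fold change was -0.020 for RRM2 (95% interval -1.16 to 1.12, adjusted p = 0.994 in edgeR's quasi-likelihood test). For RRM1 it was 0.081 (-0.31 to 0.48, adjusted p = 0.889), for TYMS 0.086 (-0.40 to 0.57, adjusted p = 0.907), for DTYMK 0.077 (-0.43 to 0.59, adjusted p = 0.923) and for TK1 0.028 (-0.40 to 0.45, adjusted p = 0.97). The test called 0 of the 5 genes and 0% of all genes after adjustment, and at an unadjusted p under 0.05 it called 0 of the 5 beside 10.4% (1410) of all genes. DESeq2 called 0 genes by the interaction after adjustment. The estimate turned on the 2 heifers that stood apart: that of RRM2 was -0.54 without heifer 10 and 0.53 without heifer 18.

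**Figure D5:**
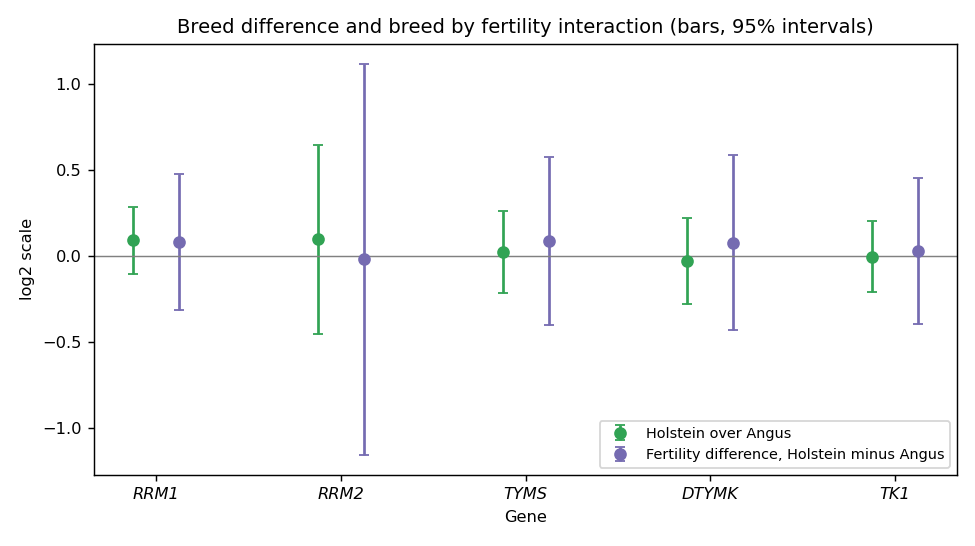
Log2 fold change of Holstein over Angus heifers, and the difference between breeds in the fertility difference, for each gene with 95% intervals. Every interval includes 0, and those of RRM2 are the widest.

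Across heifers the 5 genes varied together. After the mean of each group was subtracted from log2 CPM, Pearson's r over 22 heifers lay between 0.813 (RRM2 with TK1) and 0.959 (RRM1 with RRM2) for the 10 pairs of genes, and Spearman's rho between 0.714 and 0.92. In permutation tests with 100000 resamples, adjusted over the 10 pairs, 10 of 10 passed for both measures, with adjusted p of 1e-05 for every r, the smallest that these permutations can give, and at most 0.00029 for rho. Heifers 10 and 18 were the farthest from the median in every pair. Without them r lay between 0.585 and 0.904 and rho between 0.499 and 0.893 over 20 heifers, and 10 of 10 still passed by the permutation test (highest adjusted p 0.00602 for r and 0.0272 for rho). With 1 heifer of each close pair, that with the larger total, and the 6 heifers in no pair, r lay between 0.854 and 0.957 over 14 heifers. Heifer 10 was among these 14 and heifer 18 was not. The runs over 22 and 20 heifers held close pairs whose heifers were permuted as if independent. No run left out both heifers 10 and 18 and 1 heifer of each other close pair. Within breeds r was 0.778 to 0.962 in the 12 Angus and 0.782 to 0.965 in the 10 Holstein heifers. The members share a library in each heifer, and each breed holds heifer 10 or 18. The share of all gene pairs that would pass the same test was not measured, so 10 of 10 is not read as particular to these genes.

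Among genes with names, MCM2, a subunit of the replicative helicase, had the highest correlation with the mean of the 5 (r = 0.98 over 22 heifers, 0.942 over the 20 without heifers 10 and 18). Next came GINS1, MCM4, MCM5, RECQL4, LIG1, TRIP13, EZH2 and NASP, with r from 0.975 down to 0.961. Without heifers 10 and 18 these 9 genes had r between 0.895 (NASP) and 0.948 (RECQL4). In heifers 10 and 18 MCM2 was at 205 and 199.7 CPM, against a median of 74.7 over all heifers, and NASP, a histone chaperone, was at 123 and 126 CPM against 81.3. In all 115 genes had r over 0.9, and 96 of these had a name. With unnamed genes included, the listed genes still ranked from 1 (MCM2) to 10 (NASP) among the genes tested other than the 5. Names were at hand mainly for genes with a small p in the fertility comparison, to which heifers 10 and 18 contribute as Fertile animals. The list is thus a description, and the count with a name is not read as a result.

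Other genes of nucleotide supply were read from 7 lists with 72 genes, of which 15 had a name. In the breed comparison the test called 0 of these 15 (lowest adjusted p 0.602), and in the interaction 0 of 15 (lowest adjusted p 0.627, both edgeR quasi-likelihood), and at an unadjusted p under 0.05 both called 0 of 15, beside 10.6% and 10.4% of all genes. The estimate was higher in Fertile heifers for 14 of the 15, beside 49% of all genes and 57.4% of the 1229 named genes. For 10 of the 15, heifers 10 and 18 were the 2 highest, beside 6.57% of all genes and 26.9% of the named genes. Names were at hand mainly for genes with a small p in the fertility comparison, and both heifers are Fertile. Neither count is therefore read as a result about these lists, and the direction was not counted without heifers 10 and 18.

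Of these 15 genes, DUT, SLC29A1, NME2 and TXN had correlations above 0.9 with the mean of the 5. DUT, the dUTPase that yields the dUMP used by TYMS and was picked out after its values were seen, was at 115 and 123 CPM in heifers 10 and 18 against a median of 77.2. Its correlation was 0.919, and 0.941 without both heifers. NME2, a nucleoside diphosphate kinase, had 175 and 181 CPM against a median of 127, with a correlation of 0.901 (0.817 without both heifers). SHMT2, the mitochondrial serine hydroxymethyltransferase of the folate cycle, had 161 and 151 CPM against 103, and TXN, the thioredoxin that can reduce ribonucleotide reductase, 83.7 and 84.9 CPM against 61.9, with a correlation of 0.901 (0.809). SLC29A1, a nucleoside transporter, was at 40.2 and 33.8 CPM against 18.3, with a correlation of 0.913 (0.829). ADA, which deaminates adenosine and deoxyadenosine, was at 122 and 119.1 CPM against a median of 54.1.

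Other genes of the lists had lower correlations with the mean of the 5. CDA, which deaminates cytidine and deoxycytidine, was at 10.3 and 10.0 CPM in heifers 10 and 18, below its median of 14.1, and its correlation was -0.503. DCTD, which makes dUMP from dCMP, was at 8.92 and 8.95 CPM against a median of 8.18. DHODH and UMPS, both enzymes of de novo pyrimidine synthesis, had correlations of 0.214 and 0.177, although heifers 10 and 18 were also the 2 highest for UMPS (41.7 and 40.6 CPM against a median of 35.9). MTHFD1L, a mitochondrial enzyme of the folate cycle, had 91.3 and 87.4 CPM in heifers 10 and 18 against a median of 59.9, but its correlation was 0.473 with all heifers and -0.0987 without both. ADSL, of purine synthesis, stayed within 102 to 131 CPM over the 22 heifers and had a correlation of 0.61.

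High values in heifers 10 and 18 extended over the named genes of the cell cycle. They were the 2 highest heifers for 23 of 24 named genes of DNA replication (of 38 listed), for 16 of 16 named genes of mitosis (of 20 listed), and for 4 of 6 named E2F and DREAM factors (of 19 listed). The same held for 6.57% of all genes and 26.9% of the named genes, and names were at hand mainly for genes with a small p in the fertility comparison. The exception among the replication genes was ORC6, and among the E2F and DREAM factors TFDP1 and E2F5. E2F5 was at 5.82 and 3.95 CPM in heifers 10 and 18 against a median of 5.69. The summed level of the replication genes ran from 1016 to 2326 CPM and that of the mitosis genes from 513 to 1946 CPM over the heifers. In the breed comparison the test called 0 genes of these 3 lists, both after adjustment and at an unadjusted p under 0.05, the latter beside 10.6% of all genes (edgeR quasi-likelihood). The interaction called 0 of them after adjustment and 1 at an unadjusted p under 0.05, the replication factor C subunit RFC3, beside 10.4% of all genes.

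Markers of other cells moved with the same 2 heifers in part. Of the plasmablast list, 2 of 9 genes had a name. MZB1, a chaperone of antibody-secreting cells, was at 136 and 143 CPM in heifers 10 and 18 against a median of 60.9, and XBP1, a transcription factor of the same cells, at 182 and 194 CPM against 122. By group, MZB1 ranged from 40.4 to 98.8 CPM in Holstein Sub-Fertile, 37.4 to 136 in Holstein Fertile, 36.9 to 117 in Angus Sub-Fertile and 58.7 to 143 in Angus Fertile heifers. The summed level of MZB1 and XBP1 ran from 139.9 to 337 CPM over all heifers. BANK1, the only named gene of 10 B cell markers, was at 238 and 245 CPM in these heifers against a median of 349. Of 10 neutrophil markers 3 had a name: CSF3R was at 241 and 221 CPM against 257, MMP9 at 0.840 and 0.619 against 1.91, and TGM3 at 19.02 and 18.9 against 24.0. By group, CSF3R ranged from 232 to 510.0 CPM in Holstein Sub-Fertile, 113 to 303 in Holstein Fertile, 203 to 409.9 in Angus Sub-Fertile and 221 to 342 in Angus Fertile heifers. CCR3, of the eosinophil and basophil list, was at 66.3 and 66.7 CPM against 37.0, and FCER1A of that list at 6.69 and 6.71 against 9.93. Of 7 platelet markers 2 had a name: ITGA2B was at 57.8 and 56.1 CPM against 43.4, and GP9 at 4.41 and 3.81 against 2.11. The part of cell makeup in the values of the 5 genes was not tested.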

How the data were processed

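RNA was measured in white blood cells of 22 heifers, with groups from the sample labels. The authors sequenced Illumina stranded mRNA libraries, aligned the reads to ARS-UCD1.2 with HISAT2, removed duplicates, and deposited raw counts per Ensembl gene from featureCounts. Whether it counted by strand is not given, so reads of overlapping antisense genes cannot be told apart. Symbols, positions and transcript lengths came from the study's annotated gene table, held in part. No genome of this build was used, and no sequences are printed.

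Genes with more than 1 CPM (TMM-scaled for this filter) in at least 5 heifers were kept. edgeR 4.0.16 (R 4.3.3) fitted terms for breed and fertility to the 22 libraries with robust quasi-likelihood estimation, as the authors did. Library sizes were column totals over all 27607 genes, whereas the authors' code used totals over the genes they kept. The authors also filtered genes by FPKM and by gene type, which was not done here. The interaction came from a model that held it. Intervals are 95%. CPM uses column totals, and log2 CPM adds 0.5. Precision follows depth: counting error is given beside the counts, and p-values measure the spread between heifers.

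Close pairs are pairings with a BCV under 0.5 of the median over all pairings, at a mean of at least 20 CPM. Permutation tests were two-sided (scipy 1.17.1, numpy 2.4.6, Python 3.11.15). Alternatives were TMM factors, DESeq2 1.42.0, no filter, estimation that is not robust, each heifer left out, heifers 10 and 18 left out, pairs as blocks, each breed alone and the log2 total as a covariate. The main edgeR fits, with and without the interaction, were tested on simulated data, and the alternatives were not. The simulated heifers were drawn as independent, so that test does not cover close pairs.

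Named genes were the 5 genes, up to 3 genes of each list with the smallest p, and the 10 named genes with the highest correlation to the mean of the 5, of which 1 is not reported here; DUT, ORC6 and other exceptions were picked after their values were seen. The genes, lists, pairs and tests were chosen with earlier results of these data known.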

Additional observations from a re-analysis of the deposited data

Results flagged for a closer look

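In the groups, which held 5 to 7 heifers, the highest and the lowest CPM of each of the 5 genes were checked by Dixon's criterion. Among 20 sets of values, 2 values were past its 95% limit. RRM2 in heifer 18 was at 282 CPM, with the next Angus Fertile heifer at 107 CPM, so that the gap took 0.782 of the range of that group (limit 0.71 for 5 heifers). RRM1 in the same heifer was at 189 CPM, with the next at 125 CPM and a gap of 0.799 of the range. Chance flags about 1 in 20 independent groups at this limit. That rate does not apply here, since the 20 sets are 5 correlated genes in the same heifers and both flags are of heifer 18. The genes were also chosen on the fertility comparison, which favours high values in Fertile heifers. Heifer 10, whose values of RRM2 and RRM1 were close to those of heifer 18, was just under the limit for RRM2 in the Holstein Fertile group, with a gap of 0.709 of the range, and had a gap of 0.575 for RRM1.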

How the results depend on the processing

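Depth limited DTYMK most, whose counts began at 178 per library. The fertility estimates of the 5 genes kept their sign when any single heifer was left out: 0.26 to 0.62 for RRM2 (lowest without heifer 18), 0.24 to 0.38 for DTYMK, 0.17 to 0.28 for TK1, 0.11 to 0.23 for TYMS and 0.076 to 0.19 for RRM1, with the median of the 5 genes between 0.17 and 0.28. They also kept it with TMM factors, DESeq2, no filter, estimation that is not robust, the log2 total as a covariate and each breed alone (median 0.23 in Angus and 0.25 in Holstein heifers). Without heifers 10 and 18 the median was 0.019 and the estimate of RRM2 -0.0039. With the close pairs as blocks the median was -0.022, and the estimates were -0.083 for TYMS, -0.014 for RRM1, -0.19 for RRM2, -0.022 for TK1 and -0.019 for DTYMK. The cause of these changes was not tested.

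In 0 of the alternatives did the breed difference or the interaction of any of the 5 genes pass an adjusted p of 0.05, and estimates near 0 changed sign. With close pairs as blocks the breed estimate was -0.0018 for TYMS, -0.046 for RRM1, -0.025 for RRM2 and 0.041 for DTYMK, and with the log2 total as a covariate 0.0076 for TK1. When each heifer was left out in turn it ran from -0.13 to 0.029 for DTYMK, -0.12 to 0.34 for RRM2, -0.066 to 0.051 for TK1, -0.050 to 0.097 for TYMS and 0.038 to 0.16 for RRM1, with the extremes without heifer 10 or 18. The interaction then ran from -0.14 to 0.22 for DTYMK, -0.035 to 0.25 for RRM1, -0.54 to 0.53 for RRM2, -0.11 to 0.16 for TK1 and -0.082 to 0.26 for TYMS, again with the extremes without heifer 10 or 18, and without both it was 0.011 for RRM2. Over all genes, breed called 1440 at an unadjusted p under 0.05, 1898 without the filter and 233 with the close pairs as blocks, and the interaction 1410, and 2344 without heifers 10 and 18. After adjustment breed called 0 genes in edgeR and 10 in DESeq2.

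Correlations between the genes passed for 10 of 10 pairs in each of the 3 alternatives, and the share over all gene pairs was not measured. The interaction was not run with close pairs as blocks or with the log2 total as a covariate. No paired analysis by replicate number was possible because the labels give the heifers no numbers shared across groups.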
